A study of Mus musculus with 4 samples.

Results

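A group of 7 genes that serve the making of the T cell receptor was followed in double-positive thymocytes, which display CD4 together with CD8 and are the main immature stage of the T lineage. They are the receptor genes Notch1 and Notch3, the Notch target Hes1, the pre-T cell receptor alpha gene Ptcra, the recombinase genes Rag1 and Rag2, and Dntt, which encodes terminal deoxynucleotidyl transferase. All probe sets were taken whose platform annotation names 1 of these genes and no other, which gave 11 probe sets of 10833 that name 1 gene, for 7 genes of 8251. RNA was measured on 4 Affymetrix arrays. Per the labels, thymocytes from female C3H/HeN mice aged 4 weeks were sorted with microbeads and cultured for 3 h. The dexamethasone group (2 arrays) received the synthetic glucocorticoid dexamethasone at 1e-07 M in PBS, and the medium group (2 arrays) received medium with 0.1% PBS. No genotype was altered in either group. The design text calls the arrays of a group technical replicate extracts, so every p-value here measures the spread between extracts and not between mice or cultures.

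Notch receptors are cut after binding a ligand on a neighbouring cell, and the freed intracellular part joins the DNA-binding protein RBPJ in the nucleus to switch on targets such as Hes1 and Ptcra. In the thymus Notch1 signalling commits progenitors to the T lineage and accompanies them through the double-negative stage. There RAG1 and RAG2, which cut DNA at recombination signal sequences, rearrange the T cell receptor beta gene, and terminal transferase adds untemplated nucleotides at the joints. A successful beta chain pairs with the product of Ptcra, and the cell becomes double positive, where the recombinase acts again on the alpha gene.

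Of the promoters in the RefSeq table (assembly GRCm38.p6, 250 bases before to 50 bases after the start site), those of 6 of the 7 genes were found. The windows of Notch1 and Ptcra are shown because these genes fell with dexamethasone, and those of Rag1 and Rag2 because these neighbours on chromosome 2 did not pass the test. The windows lie at chr2:26503773-26504072 on the minus strand for Notch1, chr17:46763663-46763962 on the minus strand for Ptcra, chr2:101649483-101649782 on the minus strand for Rag1 and chr2:101624462-101624761 on the plus strand for Rag2. Capitals mark the core letters of the RBPJ motif, TGGGAA, and the E-box CANNTG, which the basic helix-loop-helix E proteins bind.
Notch1: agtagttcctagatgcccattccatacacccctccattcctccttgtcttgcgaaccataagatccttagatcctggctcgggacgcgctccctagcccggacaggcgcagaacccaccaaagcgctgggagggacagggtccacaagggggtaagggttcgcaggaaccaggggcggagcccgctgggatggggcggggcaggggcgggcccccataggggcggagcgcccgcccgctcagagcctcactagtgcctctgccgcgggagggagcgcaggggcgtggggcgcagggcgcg
Ptcra: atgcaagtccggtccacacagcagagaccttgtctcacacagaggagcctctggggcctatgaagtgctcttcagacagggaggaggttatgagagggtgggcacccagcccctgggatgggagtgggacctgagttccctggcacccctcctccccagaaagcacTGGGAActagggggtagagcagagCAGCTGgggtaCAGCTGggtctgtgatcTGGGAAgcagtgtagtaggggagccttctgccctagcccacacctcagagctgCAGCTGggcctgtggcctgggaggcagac
Rag1: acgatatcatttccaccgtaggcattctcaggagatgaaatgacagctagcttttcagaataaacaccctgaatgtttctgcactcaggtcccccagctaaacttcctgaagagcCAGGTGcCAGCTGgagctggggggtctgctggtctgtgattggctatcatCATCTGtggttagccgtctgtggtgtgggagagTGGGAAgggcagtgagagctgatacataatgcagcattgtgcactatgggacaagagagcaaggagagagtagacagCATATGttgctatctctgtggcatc
Rag2: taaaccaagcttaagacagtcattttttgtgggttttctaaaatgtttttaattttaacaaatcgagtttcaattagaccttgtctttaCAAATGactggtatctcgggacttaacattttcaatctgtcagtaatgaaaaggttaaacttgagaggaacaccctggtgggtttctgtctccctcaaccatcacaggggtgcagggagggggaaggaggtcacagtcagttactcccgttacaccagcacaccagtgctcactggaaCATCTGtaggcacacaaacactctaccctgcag
The Ptcra window held TGGGAA in 2 places, from position -84 to -79 and from -32 to -27 relative to the start site, and 3 E-boxes, all of them CAGCTG. The Rag1 window held TGGGAA in 1 place, from -52 to -47, 4 E-boxes, and 1 CCAAT box (read on the other strand), the motif of NF-Y. The Rag2 window held 2 E-boxes, and the Notch1 window none of the motifs searched. On either strand, 25.6% of 32851 promoter windows held TGGGAA, 72.3% an E-box and 37.4% CCAAT. The full glucocorticoid response element, searched by its palindromic consensus on both strands, stood in 0 of the 6 windows and in 0.475% of all windows. Its half-site AGAACA stood in 1 of the 6, that of Dntt, and in 19.0% of all windows. No motif match overlapped another in these windows. Matches describe letters in a short window and say nothing about binding.

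Notch1 and Ptcra fell with dexamethasone within 3 h, whereas the recombinase and transferase genes differed on their brightest probe sets by at most 0.31 on the log2 scale and did not pass. Of the 7 genes, all of which passed the filter on dim genes, 2 fell and 0 rose. Over all genes tested, 2.53% of 4950 fell and 2.34% rose (limma, Benjamini-Hochberg adjusted p under 0.05, 4.87% in either direction). The signal is the MAS5 intensity of a probe set on a linear scale, and a difference is of log2(signal + 1), dexamethasone minus medium. The brightest probe set stands for a gene. The median difference of the 7 genes was 0.03, beside -0.01 over all genes tested. Before adjustment, 3 of the 7 genes (Rag1 is the third) and 1074 of 4950 had a limma p under 0.05.

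**Figure D1:**
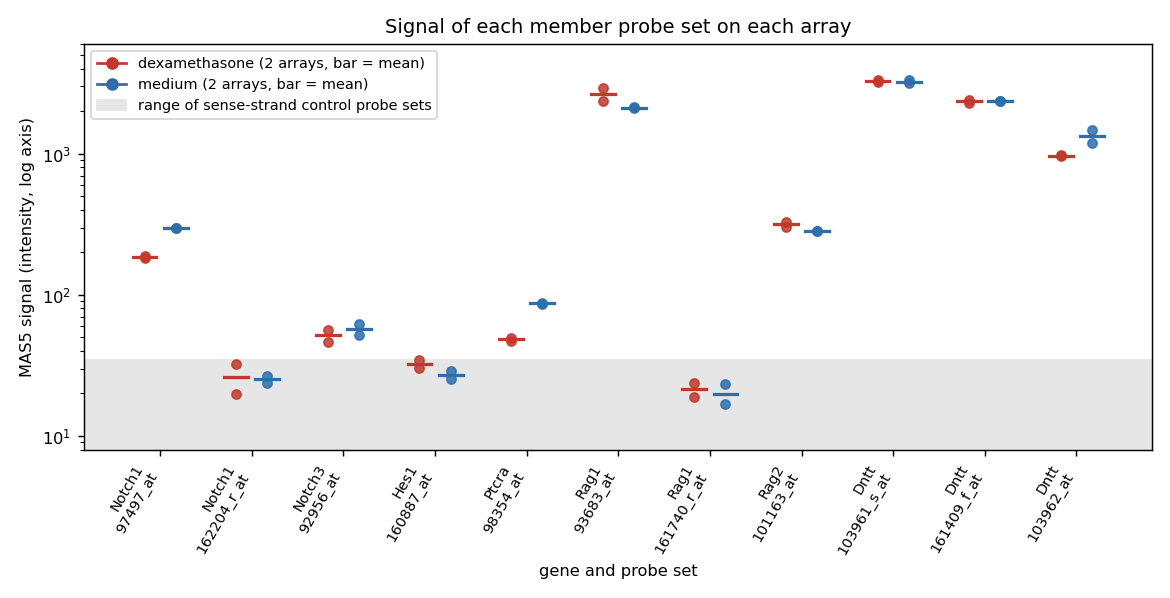
MAS5 signal (log axis) of each of the 11 probe sets on each array, with dexamethasone (red, left) and medium (blue, right). Points are arrays, bars are means of 2 arrays, and the grey band is the range of signals of 15 sense-strand control probe sets, up to 34.6. The dexamethasone points lie below both medium points for Notch1 97497_at and Ptcra, while the points of Dntt 103961_s_at and 161409_f_at overlap.

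Notch1, the receptor of T lineage commitment, had signals of 187.5 and 183.5 on the dexamethasone arrays, against 296.8 and 299 on the medium arrays (probe set 97497_at). The groups did not overlap, and arrays of a group differed far less than the groups did. The mean was 186 ± 2.83 with dexamethasone and 298 ± 1.56 in medium (SD, n = 2), a log2 difference of -0.68 ± 0.07 (SE, limma adjusted p = 0.00629), so the dexamethasone level was 0.624 of that in medium. In medium 88.3% of probe sets were dimmer, and with dexamethasone 82.4%. The other Notch1 probe set, 162204_r_at, was dim, with signals of 19.9 and 32.4 with dexamethasone and 26.6 and 23.6 in medium. It showed no separation of the groups (log2 difference 0.02 ± 0.27), and it lay within the range of 0.4 to 34.6 spanned by the sense-strand control probe sets, whose probes are laid out for the strand opposite to the messenger. Averaging both probe sets ended the call (-0.33, limma adjusted p = 0.264), as did leaving out either medium array (limma adjusted p = 0.0689 and 0.0691). In a bulk sample, fewer cells with a transcript and less of it per cell cannot be told apart.

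Ptcra, the invariant chain that pairs with a new beta chain, had signals of 49.5 and 47 with dexamethasone, against 87.7 and 86.1 in medium (98354_at, its sole probe set). Again both dexamethasone arrays lay below both medium arrays. The mean was 48.2 ± 1.77 with dexamethasone and 86.9 ± 1.13 in medium (SD, n = 2), a log2 difference of -0.84 ± 0.12 (SE, limma adjusted p = 0.0179), or 0.560 of the medium level. It ranked 33rd by size among all genes that were lower, and Notch1 77th. Single pairs of a dexamethasone and a medium array gave log2 differences of -0.89 to -0.79 for Ptcra and -0.70 to -0.66 for Notch1. Leaving out any of the 4 arrays kept the Ptcra difference between -0.87 and -0.80 but ended its call (limma adjusted p from 0.0668 to 0.146).

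Notch3, the second Notch receptor of thymocytes, had signals of 46.4 and 56.6 with dexamethasone and 52.2 and 62.4 in medium (92956_at). The groups overlapped, and each group spread more than their means differed. The log2 difference was -0.15 ± 0.17 (SE, limma adjusted p = 0.652), with a 95% interval of -0.55 to 0.25, and the interval of Notch1, -0.86 to -0.51, overlaps it. Hes1, a transcriptional repressor and classic Notch target, had signals of 30.2 and 34.4 with dexamethasone and 25.1 and 28.8 in medium (160887_at). The dexamethasone values were the higher ones, by a log2 difference of 0.25 ± 0.18 (limma adjusted p = 0.479, 95% interval -0.19 to 0.69), but after scaling to the hybridization controls it was -0.20. All 4 Hes1 values lay within the range of the sense-strand control probe sets, though above 14, the highest signal of 19 control probe sets for bacterial and yeast transcripts. Hes1 was thus near the limit of what these arrays measured.

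Rag1, which encodes the catalytic subunit of the recombinase, was one of the brighter signals, with 99.2% of probe sets dimmer in medium and 99.4% dimmer with dexamethasone. It had signals of 2929.3 and 2347.2 with dexamethasone and 2130.8 and 2097.6 in medium (93683_at). Both dexamethasone arrays were higher, but they differed from each other by more than the lower one differed from medium. The mean was 2638 ± 412 with dexamethasone and 2114 ± 23.5 in medium (SD, n = 2), a log2 difference of 0.31 ± 0.11 (SE, limma adjusted p = 0.167, 95% interval 0.05 to 0.57). It passed without the second dexamethasone array (0.47, limma adjusted p = 0.0462) and was 0.15 without the first. The dim second probe set of Rag1, 161740_r_at, had signals of 23.7 and 19 with dexamethasone and 16.7 and 23.2 in medium, within the sense-strand range.

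Rag2, the recombinase subunit that reads trimethylated histone H3 lysine 4, had signals of 303.3 and 330 with dexamethasone and 285 and 282.3 in medium (101163_at). The groups did not overlap, and the dexamethasone arrays were the higher ones. The log2 difference was 0.16 ± 0.08 (SE, limma adjusted p = 0.296, 95% interval -0.03 to 0.34), so rises beyond 1.27-fold lay outside the interval. The 87.8% of probe sets dimmer than Rag2 in medium became 89.3% with dexamethasone. After scaling to the hybridization controls the differences of Rag1 and Rag2 were -0.14 and -0.30, where the median over all genes tested was -0.46, and neither passed.

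Dntt was the brightest of the signals followed here, and its 3 probe sets did not behave alike. The brightest, 103961_s_at, had signals of 3354.4 and 3250.2 with dexamethasone and 3325 and 3152.6 in medium. These groups overlapped, with a log2 difference of 0.03 ± 0.07 (SE, limma adjusted p = 0.845) and a 95% interval of -0.13 to 0.19. Probe set 161409_f_at, with 2420.8 and 2272.9 under dexamethasone and 2375.7 and 2370.6 in medium, differed by -0.02 ± 0.07.

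The third Dntt probe set, 103962_at, was lower with dexamethasone, at 956.2 and 972.9, against 1466.3 and 1184.5 in medium. Its groups did not overlap, and the medium arrays spread widely. The log2 difference was -0.45 ± 0.11 (SE), which missed the threshold among all 7453 probe sets tested (limma adjusted p = 0.0863) and passed in 3 of 13 alternatives. Relative to 103961_s_at on the same array, it stood at -1.81 and -1.74 on the log2 scale with dexamethasone and at -1.18 and -1.41 in medium. RefSeq lists 2 curated transcripts for Dntt, and which of them each probe set reads is not given in the files. This ratio was not tested.

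**Figure D2:**
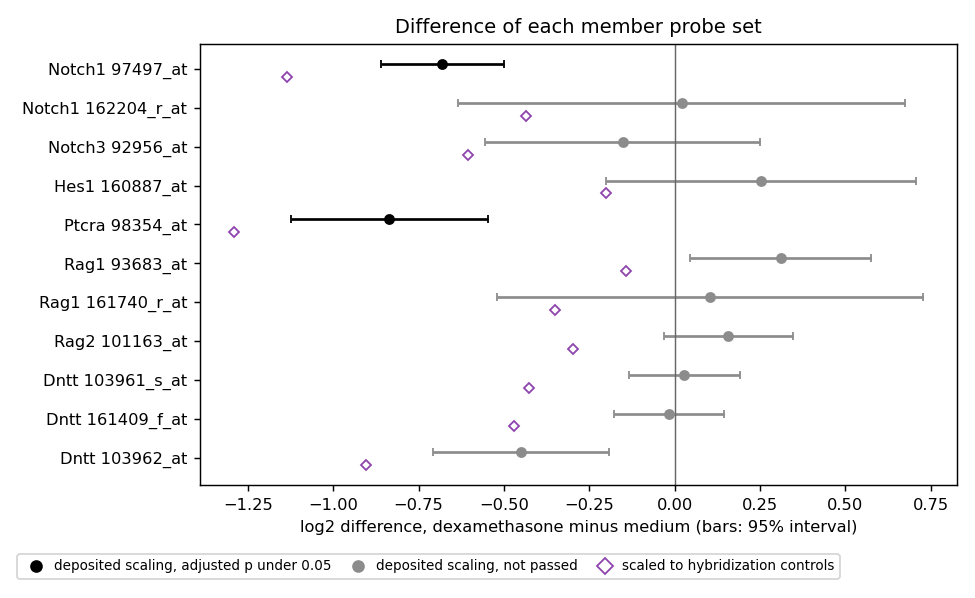
Log2 difference (dexamethasone minus medium) of each probe set with its 95% interval, from the limma fit over all probe sets. Black points passed and grey points did not, and open diamonds give the difference after scaling to the hybridization controls. Notch1 97497_at (-0.68) and Ptcra (-0.84) are the black points, and each diamond lies to the left of its point.

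Probe set by probe set, 2 of the 11 fell and 0 rose, beside 1.52% and 1.64% of 7453 probe sets tested (3.15% in either direction). Among the 7 genes the groups did not overlap for 5. In 3 of these (Rag1, Rag2 and Hes1) dexamethasone was higher, and in 2 (Notch1 and Ptcra) it was lower. Over all genes tested, 24.8% were higher without overlap and 27.4% lower, so a lack of overlap is common on these arrays. The 9 hybridization control probe sets were 1.37-fold higher on the dexamethasone arrays, and scaling to them lowers every gene alike. With that scaling 4 of the 7 genes fell (Notch1, Ptcra, Notch3 and Dntt), beside 50.7% of all genes, and 0 rose, beside 0.747%. Their differences were then -1.13, -1.29, -0.61 and -0.43. The falls of Notch1 and Ptcra were larger than the median shift of -0.46, and those of Notch3 and Dntt were nearer to it.

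**Figure D3:**
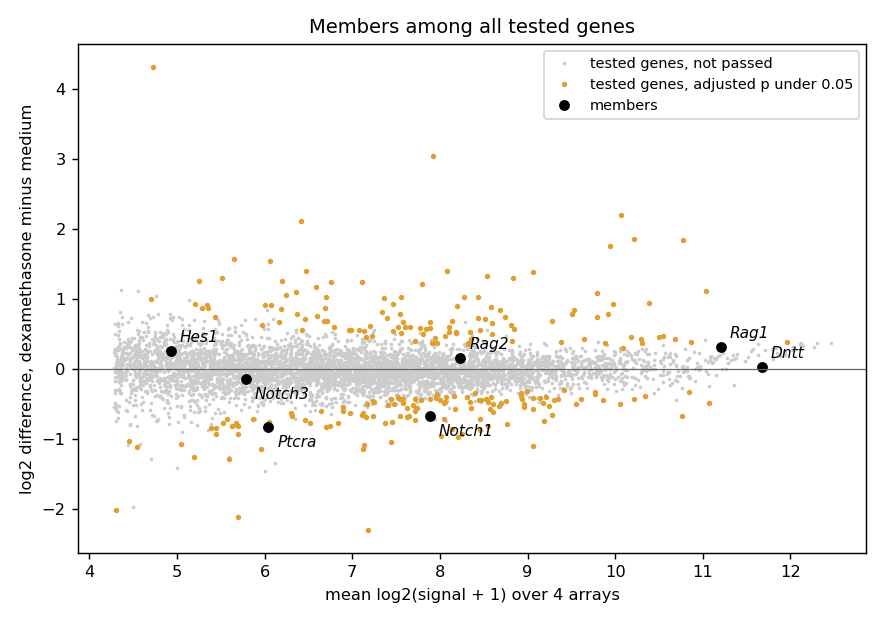
Log2 difference (dexamethasone minus medium) against mean log2(signal + 1) for 4950 tested genes. Orange points passed, and black points are the 7 genes. Ptcra and Notch1 lie among the orange points below 0, and Rag1, Rag2, Hes1, Notch3 and Dntt lie among the grey points.

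The genes whose pattern over the 4 arrays lay nearest to Notch1, by Euclidean distance of centred log2 signals, were Nhp2 (distance 0.04), Fdps (0.04) and Mid1ip1 (0.07). Nhp2 encodes a ribonucleoprotein of pseudouridylation, and Fdps the farnesyl diphosphate synthase of isoprenoid synthesis. Their log2 differences were -0.69, -0.67 and -0.72, and all 3 fell. Nearest to Ptcra were Zfp36 (0.05), which promotes decay of AU-rich messengers, Lamc1 (0.06), a laminin chain, and Rreb1 (0.06), a zinc finger factor, with log2 differences of -0.83, -0.85 and -0.82. Over 4 arrays such nearness says little more than that the falls are of like size.

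Among the other genes of these pathways, 8 passed. Of 104 listed genes, 71 had a probe set that names 1 gene and 59 were tested. Of these, 3 rose and 5 fell, which is 13.6% of those tested beside 4.87% of all genes. The lists were put together with earlier results of these data known, among them the changes of Id3, Runx1, Gfi1, Satb1 and Ikzf1. Their median difference was -0.06, beside -0.01 over all genes tested. Scaled to the hybridization controls, 33 of the 59 fell and 0 rose, and 50.7% of all genes fell.

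**Figure D4:**
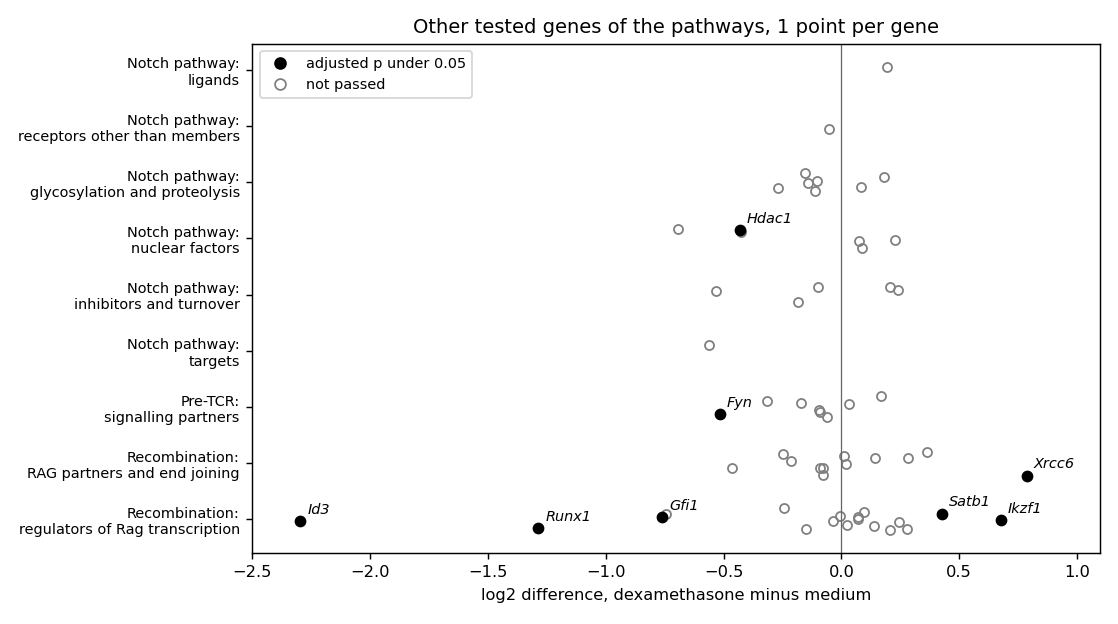
Log2 difference (dexamethasone minus medium, deposited scaling) of each other tested gene, by list. Filled points passed and are named, and open points did not. The filled points stand mostly among the regulators of Rag transcription, where 2 rose and 3 fell. These changes were known when the lists were put together.

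In the Notch pathway itself, the median difference of 21 further genes tested was -0.10. Of these, 1 passed, beside 4.87% of all genes tested. This was Hdac1, a histone deacetylase of corepressor complexes, with signals of 309.9 and 320.7 with dexamethasone, against 430.5 and 421.1 in medium (-0.43 ± 0.07, limma adjusted p = 0.0221). Its call was lost with no variance trend and without any 1 of the 4 arrays (limma adjusted p from 0.0660 to 0.160). Rbpj, which encodes the DNA-binding partner of Notch, was at 43.5 and 35.9 with dexamethasone and at 33.2 and 34 in medium (0.23 ± 0.17, adjusted p = 0.491). Of the ligands, Dll1 and Jag2 were at background in both groups, and Dlk1, a related protein, was at 25.6 and 40.5 with dexamethasone and at 26.1 and 30.1 in medium (0.19 ± 0.25).

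Of the other receptors, Notch2 differed by -0.05 ± 0.16. Notch4, left out by the filter on dim genes, had signals of 29.4 and 32 with dexamethasone and 9 and 2.9 in medium on its brighter probe set, 93928_f_at. Its adjusted p among probe sets was 0.0570, its values lay within the sense-strand range, and its other probe set was at background in both groups. Among the 7 tested genes of glycosylation and proteolysis, 0 passed, and the largest difference was -0.27 ± 0.16 for Aph1a, a subunit of gamma-secretase. Among the inhibitors it was -0.53 ± 0.14 (adjusted p = 0.0850) for Fbxw7, which marks the Notch intracellular part for destruction. In the list of targets, which leaves out Hes1 and Ptcra, the sole tested gene was Gata3, a transcription factor of T cell development. It had signals of 64.9 and 66.8 with dexamethasone, against 92.9 and 102.9 in medium (-0.56 ± 0.12, limma adjusted p = 0.0503). Hes5, Myc and Il2ra were at background in both groups. Hey1 and Ccnd1, left out by the filter, were at background in medium only. Hey1 was at 9.9 and 18 with dexamethasone and 5.4 and 11.2 in medium, and Ccnd1 at 18.1 and 17.9 against 13.9 and 11.1.

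Among the signalling partners of the pre-T cell receptor, 1 of 8 tested genes fell, beside 2.53% of all genes tested. Fyn, a Src family kinase, had signals of 169.6 and 174.7 with dexamethasone, against 244.5 and 248.7 in medium (-0.52 ± 0.08, limma adjusted p = 0.0190). Its call too was lost with no variance trend and without any 1 array (limma adjusted p from 0.0636 to 0.140). The CD3 chains differed little, with Cd3e at -0.06, Cd3d at -0.10, Cd3g at -0.17 and Cd247 at 0.17, and none passed. Lcp2, the adaptor SLP-76, was at -0.32 ± 0.07 (adjusted p = 0.0549). The median of this list was -0.09.

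Among the partners of the recombinase and the end-joining machinery, 1 of 12 tested genes passed, beside 4.87% of all genes tested, and it rose. Xrcc6 encodes Ku70, which holds broken DNA ends for joining, and had signals of 1369.3 and 1186.1 with dexamethasone, against 708.5 and 768.5 in medium. Both dexamethasone arrays lay far above both medium arrays. The rise was 1.73-fold (0.79 ± 0.09, limma adjusted p = 0.00750), but the call was lost scaled to the hybridization controls (0.33, limma adjusted p = 0.0557), with no variance trend (0.0650) and without either medium array (0.0847 and 0.0519). Its partner Xrcc5, or Ku80, was dim and differed by -0.09 ± 0.25, and Prkdc, the kinase that Ku recruits, by 0.37 ± 0.33. Polm, a polymerase related to terminal transferase, differed by -0.08 ± 0.09. The median of the list was -0.03.

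Among 18 tested regulators of Rag transcription, 2 rose and 3 fell, and the median was 0.05. Ikzf1, the zinc finger factor Ikaros, rose with 371.6 and 339.3, against 195 and 252.4 in medium, and passed in 7 of 15 alternatives. Scaled to the hybridization controls its difference was 0.22 and did not pass. Among all probe sets tested, this Ikzf1 probe set, 102293_at, missed the threshold (limma adjusted p = 0.0537). The other, 102294_at, was dim and its groups overlapped, at 17.4 and 12.6 with dexamethasone and 8.4 and 13.8 in medium. Satb1, a chromatin organiser of thymocytes, was at 1995.4 and 1806.3 with dexamethasone and at 1388 and 1439.2 in medium. It rose at the deposited scaling (0.43), but passed in 9 of 15 alternatives, and its difference was -0.029 scaled to the hybridization controls. Id3, an inhibitor of E proteins, fell most (-2.30), followed by Runx1 (-1.29) and Gfi1, a zinc finger repressor (-0.76). Id3 passed in all 15 alternatives run, whereas Runx1 and Gfi1 missed the threshold without the first dexamethasone array and without either medium array (limma adjusted p up to 0.111 and 0.0829). The E protein genes Tcf3 and Tcf12 were at 0.21 ± 0.16 and 0.10 ± 0.07 and did not pass.

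The labelled cell type was checked against its markers. Of 10 double-positive markers, 8 had a probe set and 0 of these were at background. Their summed signal was 9919 and 9420 with dexamethasone and 10224 and 9892 in medium. Of the 8, 1 fell, beside 2.53% of all genes tested. This was Cd8b1 (-0.33, limma adjusted p = 0.0438, passed in 9 of 15 alternatives). Of 7 double-negative markers, 5 were at background in both groups, and the sums were 95.2 and 81.3 with dexamethasone and 71.9 and 69.6 in medium. The only one tested was Dtx1, with 41.1 and 23.7 with dexamethasone and 24.9 and 27.7 in medium, which overlap. The sums also hold background values. Among these, Cpa3 was at 10.6 and 12.9 with dexamethasone and 2.6 and 2.7 in medium. Il2ra was lower with dexamethasone, at 1.4 and 1.7 against 4.5 and 6.8. Ptcra and Notch1 are also expressed by double-negative cells, and the part of such cells in their falls was not tested.

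Among markers of other cells, 3 rose and 2 fell, where 2.34% and 2.53% of all 4950 genes tested did. Tested were 4 markers of mature single-positive thymocytes, 3 of B cells and 3 of epithelium and stroma. There were also 2 of macrophages and dendritic cells, 2 of erythroid cells and 1 of gamma delta T and NK cells. Of 5 measured markers of mature single-positive thymocytes, 4 were tested, of which 1 was higher with dexamethasone and 3 lower. Il7r rose (1.40, limma adjusted p = 0.00332), at 146.8 and 139.3 against 49.4 and 58 in medium. Itgb7 (-0.39), Klf2 (-0.37) and Ccr7 (-0.09) were lower and did not pass. The list's sum, which includes Il7r, was 382.2 and 364.8 with dexamethasone and 322.3 and 355.4 in medium. B cell markers, of interest because developing B cells also use RAG, had sums of 1914 and 1888 with dexamethasone and 1416 and 1394 in medium. Most of this was Ighm, read on the brightest of its 16 probe sets. Ighm rose (0.46, limma adjusted p = 0.0119) but differed by 0.0084 scaled to the hybridization controls. Its call was also lost with no variance trend, and Ighm passed in 9 of 14 alternatives. Ms4a1 (0.37) and Cd79b (0.11) were higher at the deposited scaling and did not pass, and Cd22 was at background. Cd79a (-0.05) and Blk (0.41) were dim and left out by the filter, and the groups overlapped for both. Of 11 measured markers of thymic epithelium and stroma, 7 were at background, including the keratins Krt5, Krt8, Krt14 and Krt18. In that list Cldn4 fell (-1.15, limma adjusted p = 0.00288), at 87.4 and 97.8 against 202.9 and 210.2 in medium. Col1a1 rose (0.997, limma adjusted p = 0.0397, passed in 5 of 13 alternatives), and Col1a2 differed by 0.09 and did not pass. The list's sum, which includes Cldn4, was 344.7 and 314.4 with dexamethasone and 415.7 and 396.7 in medium. Of 3 measured erythroid markers, Car2 fell (-1.14, limma adjusted p = 0.0184, passed in 10 of 14 alternatives), though not with no variance trend. Alas2 was at background. Hba-a1 was higher, at 112.1 and 104 against 94.3 and 99.9 in medium (0.15), and did not pass. Car2 was at 35.4 and 47.2 against 92.7 and 90 in medium. The sum was 150.3 and 153.4 with dexamethasone and 189 and 195.7 in medium. The gamma delta T and NK cell list had 3 of 4 measured markers at background and the macrophage and dendritic cell list 5 of 9, and 0 passed in either. Their sums were 102.6 and 89.8 with dexamethasone and 115.9 and 117 in medium for the first list, and 106.8 and 88 with dexamethasone and 105.3 and 120.6 in medium for the other. For the actin control, whose 3′ over 5′ ratio grows as RNA breaks down, that ratio was 1.40 and 1.24 with dexamethasone and 1.15 and 1.06 in medium. The same ratio for Gapdh overlapped between the groups, at 0.904 and 0.823 with dexamethasone and 0.838 and 0.845 in medium. The part of these shifts in the results was not tested.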

How the data were processed

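The members and gene lists were chosen with earlier results of these data known. Each deposited value is a linear-scale intensity that the authors computed. The tool named per the submitters' processing notes is MAS5, and its version is not given in the sources used here. Detection calls were not used. Of 12488 probe sets, 66 were controls and left out, 396 named several genes and 1193 none. The gene IDs of all 7 members matched RefSeq (GRCm38.p6). From the deposited intensities log2(signal + 1) was computed. Each gene was its brightest probe set, and genes at or under the 40th percentile of genes, a signal of 18.5, were left out. Dexamethasone was compared with medium by lmFit and eBayes with a trend (limma 3.58.1, R 4.3.3), as a two-sided test with Benjamini-Hochberg adjustment at 0.05. The fit was tested on simulated data. Named were every member probe set, the 3 genes nearest to each member that passed, and in each list every gene that passed or else the largest difference; other list genes were chosen after their values were seen. Median signals were 22.8 and 21.9 with dexamethasone and 21.7 and 21.1 in medium. The number of arrays limits the precision.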

Additional observations from a re-analysis of the deposited data

How the results depend on the processing

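Each count was recomputed under up to 16 alternatives, of which the 40th percentile over all probe sets was chosen after seeing the data. Against 241 genes changed, there were 116 with no filter, 69 with no variance trend, 371 with the replicate block and 2548 scaled to the hybridization controls. Without 1 array there were 47 to 103. Against 2 of the 7 genes, 1 passed with the filter at the 60th percentile, where Notch1 passed and Ptcra, Notch3 and Hes1 were not tested. With the mean of probe sets 1 passed (Ptcra), and scaled to the hybridization controls 4. Without 1 array Notch1 and Ptcra never passed together, and their differences ran from -0.70 to -0.67 and from -0.87 to -0.80. Against 2 of the 11 probe sets, 0 passed with no variance trend, 6 scaled to the hybridization controls and 0 without any 1 array. Against 8 pathway genes, 3 passed with no variance trend, 33 scaled to the hybridization controls and 2 to 5 without 1 array.

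The differences of Notch1 and Ptcra kept their direction under all alternatives run, from -1.13 to -0.33 and from -1.29 to -0.68, with 13 of 16 and 11 of 15 past the threshold. Scaled to the hybridization controls, the signs of Hes1 (-0.20), Rag1 (-0.14), Rag2 (-0.30) and Dntt (-0.43) turned. Dntt also turned when centred on array medians (-0.031), with the mean of probe sets (-0.15) and after quantile normalization (-0.16), and ran from -0.010 to 0.067 without 1 array. The causes were not tested. The replicate numbers are not stated to pair the arrays, and same-numbered arrays deviated together only weakly (r = 0.0892 across 4950 genes). With the replicate block, Notch1 and Ptcra were still the 2 genes that passed, and among probe sets the third of Dntt passed too (limma adjusted p = 0.0415). Signals within the sense-strand control range limit what Hes1 and the dim probe sets of Notch1 and Rag1 can show.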
